A study of Mus musculus with 6 samples.

Results

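The mesothelial genes of the pleura were 8 genes listed by name: Upk3b, Upk1b, Msln, Wt1, Rspo1, Lrrn4, Gpm6a and Krt19. Each matched 1 of the 56262 gene identifiers in the count table. All 8 were among the 17120 genes that passed the filter on low counts and were tested. The lungs came from untreated mice aged 8 weeks on a C57BL/6 background. The 3 R/R mice carried the RBM47 substitutions K329R and K332R on both alleles, placed there by CRISPR/Cas editing, and the 3 WT mice were littermates with neither substitution. The study built the knock-in to remove the lysines at which the RNA-binding protein RBM47 is joined to ISG15, and compared the lungs by bulk RNA-seq at rest. Gene counts carry no allele, so the genotype of a lung could not be checked with them.

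The pleura is a thin sheet that covers the outside of the lung. Its free surface is a single layer of mesothelial cells, flat cells of mesodermal origin that carry keratins, tight junctions and microvilli and secrete lubricating fluid. Mesothelium is a small part of whole lung. In bulk RNA, more mesothelial cells and more RNA from each such cell cannot be told apart.

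Libraries held between 16501092 and 18141067 counts in genes, so 1 count was worth 0.0551 to 0.0606 CPM, the unit used throughout for levels scaled to library size. Between libraries of a group the chi-square per degree of freedom was 5.65 to 9.02, so no pair agreed within sampling noise. A gene was called at a p of 0.05 or less in the quasi-likelihood test of edgeR, after Benjamini-Hochberg adjustment over all 17120 genes. By this rule 300 genes were called, 1.75% of those tested, with 0.648% higher in R/R and 1.10% lower. In 9.16% of tested genes every R/R lung was above every WT lung, and in 9.50% every R/R lung was below. Markers of adipocytes set R/R replicate 3 and WT replicate 3 apart. Adipoq, the adipocyte hormone adiponectin, had 10 counts in R/R replicate 3, 17 in WT replicate 3 and 0 in the other 4 lungs. Cfd, the adipocyte protease adipsin, had 144 and 148 counts in these lungs and 2 to 27 in the others. Results are therefore also given without this pair of lungs, an alternative chosen after seeing the data.

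7 of the 8 members had a higher mean in R/R lungs, and Upk1b had a lower one. Of all genes tested, 51.2% were higher in R/R. Lrrn4 rose about 2.01-fold and was the 1 member called, against the 1.75% of all genes called. With no adjustment, 7 of the 8 had an edgeR p of 0.05 or less, as did 14.2% of all genes tested. The median log2 fold change of the members was 0.46, beside 0.0045 for all genes tested. In Lrrn4, Rspo1 and Krt19 every R/R lung lay above every WT lung, 3 of 8 members against the 9.16% of all genes. In the others the groups overlapped. R/R replicates 1 and 2 were the highest 2 lungs in 5 of the 8 members, whereas WT replicate 1 was the lowest lung in 7.

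**Figure D1:**
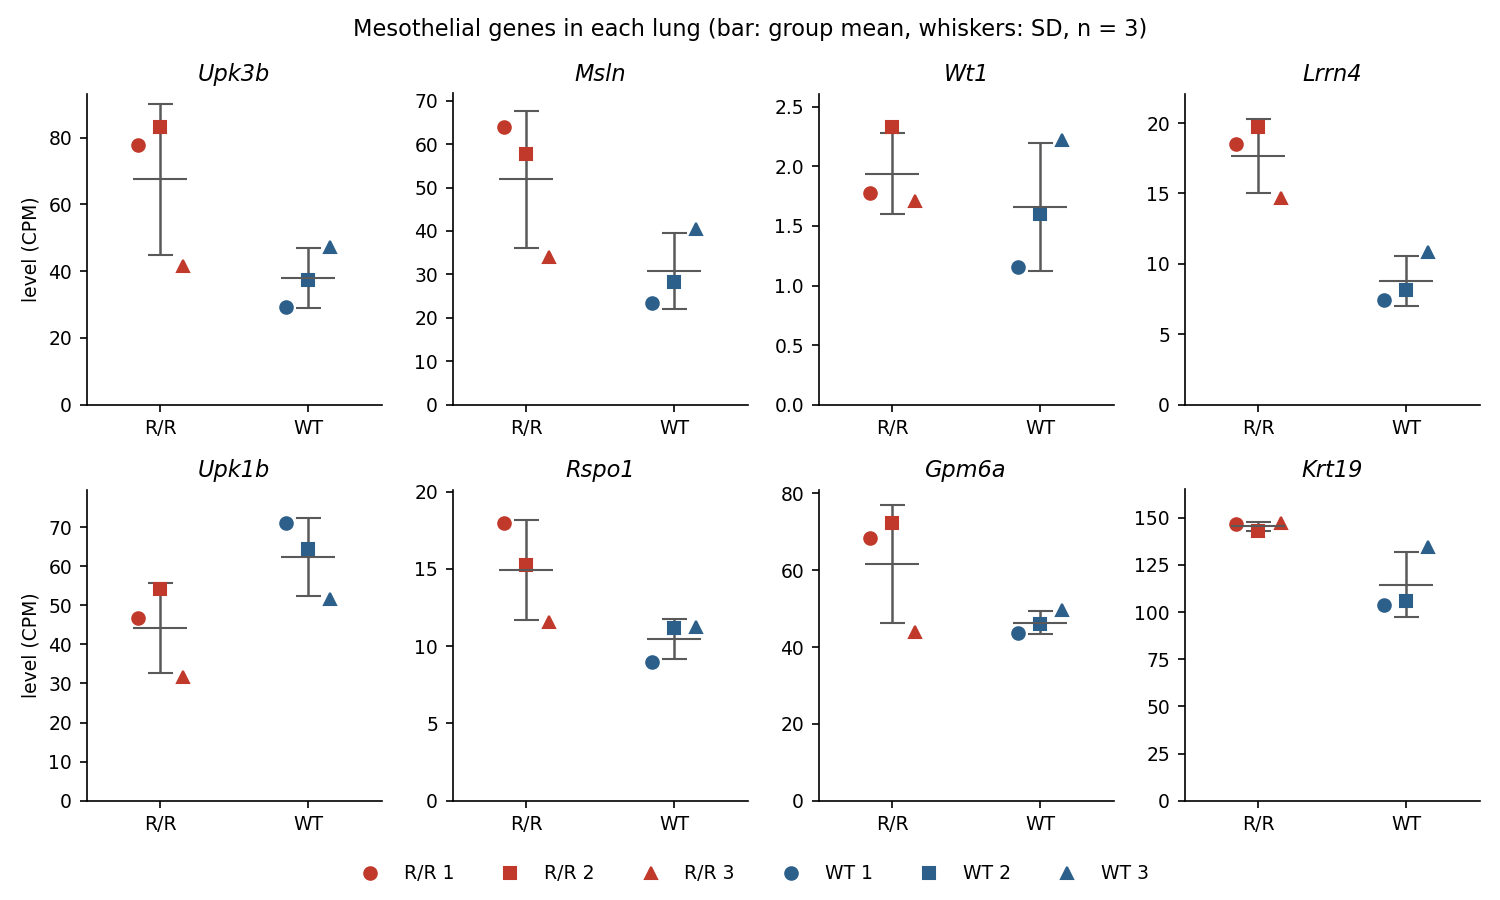
Level of each member in CPM (vertical axes from 0) in the 3 R/R lungs (red) and 3 WT lungs (blue), with the group mean as a bar and the SD as whiskers. R/R replicate 3 (triangle) lies among or near the WT lungs in Upk3b, Msln and Gpm6a, and Upk1b runs the other way, with its lowest value of 31.7 CPM in that lung.

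Upk3b and Msln mark the mesothelial surface. Upk3b encodes uroplakin 3B, a membrane protein of the uroplakin family, whose other members coat the bladder lining, and in lung it is a standard mesothelial marker. The gene lies at chr5:136038496-136046487 on the plus strand of GRCm38, the build of the count table. The R/R lungs, taken here and below as replicates 1, 2 and 3, had 77.8, 83.3 and 41.5 CPM of Upk3b, and the WT lungs had 29.4, 37.5 and 47.4 CPM. R/R replicates 1 and 2 were above every WT lung, but R/R replicate 3 was below WT replicate 3. The means were 67.5 ± 22.7 and 38.1 ± 9.0 CPM (SD, n = 3 each), a log2 fold change of 0.83 with a 95% interval of 0.34 to 1.31. With an edgeR adjusted p of 0.0995 it was not called.

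Msln encodes mesothelin, a cell surface protein anchored by a lipid and processed from a longer precursor, and maps to chr17:25748613-25754378 on the minus strand. It measured 64.0, 57.6 and 34.1 CPM in the R/R lungs and 23.5, 28.1 and 40.5 CPM in the WT lungs. The overlap was the same as in Upk3b: R/R replicate 3 lay between WT replicates 2 and 3. The log2 fold change was 0.76 (95% interval 0.28 to 1.24), with an edgeR adjusted p of 0.125. Msln followed Upk3b closely from lung to lung. Its CPM divided by that of Upk3b was 0.779 ± 0.0753 in R/R and 0.802 ± 0.0515 in WT (SD, n = 3 each), overlapping ranges.

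Upk1b went the other way. It encodes uroplakin 1B, a tetraspanin that in the bladder pairs with uroplakin 3 proteins, and lies at chr16:38773184-38800328 on the minus strand. R/R lungs had 46.7, 54.2 and 31.7 CPM and WT lungs 71.1, 64.5 and 51.6 CPM. WT replicate 1, the lowest lung for every other member, was the highest for Upk1b, and only R/R replicate 2 lay above WT replicate 3. The means were 44.2 ± 11.4 CPM in R/R and 62.4 ± 9.90 CPM in WT (SD, n = 3 each). The log2 fold change was -0.50 (95% interval -0.85 to -0.14), its adjusted p was 0.174 by edgeR's quasi-likelihood test, 0.445 by DESeq2 and 0.0772 by edgeR's exact test, and its unadjusted p in the edgeR fit was 0.0103. So 0 of 8 members were called lower by these 3 tests.

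The ratio between the uroplakins, chosen after their values were seen, joins the 1 member with a lower mean in R/R to one with a higher mean, and is given as a description. Upk1b over Upk3b, CPM over CPM, was 0.601, 0.650 and 0.764 in the R/R lungs and 2.42, 1.72 and 1.09 in the WT lungs. All R/R ratios were below 1 and all WT ratios above 1, with means of 0.672 ± 0.0839 and 1.74 ± 0.665 (SD, n = 3 each). How many other genes separate the groups when divided by Upk3b was not counted. Relative to the mean of all 8 members, 19.1% of the other genes tested had every R/R lung below every WT lung. The same ratio for Lrrn4, at 0.276 ± 0.0671 and 0.232 ± 0.0181, and for Krt19, at 2.38 ± 1.02 and 3.06 ± 0.405, overlapped between the groups. Lrrn4 and Krt19, like Upk3b, had higher means in R/R. The lowest WT ratio was 1.43 times the highest R/R ratio, and both belonged to the lungs with adipocyte markers. Of the other bladder uroplakins, Upk1a, Upk2 and Upk3a together reached 1.94 to 4.07 CPM in R/R and 2.73 to 3.57 CPM in WT lungs. Upk3bl was at 0 counts in all 6 lungs, which allows up to 0.165 to 0.182 CPM per library (3 counts, counting error only).

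Lrrn4, a leucine-rich repeat membrane protein first known from neurons and used as a mesothelial marker, showed the clearest difference. The gene is at chr2:132868305-132880891 on the minus strand. Its counts were 334, 330 and 249 in the R/R lungs and 122, 147 and 185 in the WT lungs. On the CPM scale this was 18.5, 19.7 and 14.7 against 7.41, 8.11 and 10.8. Every R/R lung was above every WT lung, with R/R replicate 3 and WT replicate 3 nearest to each other. The means were 17.6 ± 2.65 and 8.78 ± 1.81 CPM (SD, n = 3 each). That is a log2 fold change of 1.01 with a standard error of 0.16, and the edgeR adjusted p was 0.0124. The call did not hold without R/R replicate 2, where the edgeR adjusted p was 0.0700, or without WT replicate 1, where it was 0.0567. It held without any other lung.

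Gpm6a encodes a proteolipid membrane glycoprotein best known from neurons, and spans chr8:54954843-55060871 on the plus strand. Levels were 68.3, 72.3 and 44.0 CPM in R/R and 43.6, 45.9 and 49.6 CPM in WT lungs. The WT lungs were tight, with an SD of 3.02 CPM around a mean of 46.4, and R/R replicate 3 lay inside their range while the other R/R lungs were well above it. Its log2 fold change was 0.41 (95% interval 0.09 to 0.73), with an edgeR adjusted p of 0.216. Its relative Gpm6b, at 85.4 ± 9.81 CPM in R/R and 81.0 ± 2.26 CPM in WT (SD, n = 3 each), had a log2 fold change of 0.08. The Lrrn4 relative Lrrn3 had one of 0.12, from 14.5 ± 1.79 and 13.4 ± 2.47 CPM, and the relatives of Msln (Mslnl, Otoa and Strc) did not pass the filter, at 0.364 to 1.18 CPM for all 3 together.

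Upstream sequence was examined for the members whose promoter windows were in the RefSeq table used here, namely Upk3b, Lrrn4, Rspo1 and Gpm6a. Each window runs from 250 bases before the annotated start to 50 bases after it. The windows of Upk3b and Lrrn4 are shown because these members had the largest fold changes and each holds 1 match to GGAATG on either strand, the core motif of TEAD factors, which act with YAP. Capitals mark the match, in Upk3b on the opposite strand. They lie at chr5:136038246-136038545 on the plus strand and chr2:132880813-132881112 on the minus strand of GRCm38.p6.
Upk3b: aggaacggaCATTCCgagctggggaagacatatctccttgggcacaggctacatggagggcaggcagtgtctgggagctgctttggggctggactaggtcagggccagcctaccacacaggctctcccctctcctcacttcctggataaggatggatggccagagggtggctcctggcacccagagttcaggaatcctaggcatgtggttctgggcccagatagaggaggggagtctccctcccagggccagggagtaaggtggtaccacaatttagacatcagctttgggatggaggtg
Lrrn4: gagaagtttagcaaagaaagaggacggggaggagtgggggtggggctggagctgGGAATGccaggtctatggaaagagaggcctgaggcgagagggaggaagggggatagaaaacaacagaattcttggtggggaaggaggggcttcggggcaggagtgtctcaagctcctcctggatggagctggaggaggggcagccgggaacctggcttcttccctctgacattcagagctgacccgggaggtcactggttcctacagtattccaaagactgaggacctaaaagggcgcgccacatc
The match begins 241 bases before the start in Upk3b and 196 bases before it in Lrrn4. The windows searched for Rspo1 and Gpm6a hold none, so 2 of 4 members matched, beside 14.66% of the 32851 windows in the table. Gpm6a had 2 windows there, and only the 1 nearest to the gene's start in the count table was searched. A search for GCGTGGGNG, a motif of the factor WT1, on both strands found 0 matches in the 4 windows, beside 1.9% of all windows. A match is a description of these letters.

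Wt1 is the transcription factor that marks mesothelium from the embryo onward. At chr2:105126529-105173616 on the plus strand, it was the scarcest member, with 32, 39 and 29 counts in R/R and 19, 29 and 38 counts in WT lungs. These are 1.78, 2.33 and 1.71 CPM against 1.154, 1.601 and 2.22 CPM. The groups overlapped throughout, and the log2 fold change of 0.22 had a 95% interval of -0.44 to 0.88 (edgeR adjusted p = 0.813). Neither a difference of 0.76, that of Msln, nor no difference lies outside that interval. The Wt1-associated proteins Wtap and Wtip had log2 fold changes of 0.01 and 0.04, and the antisense transcript Wt1os did not pass the filter.

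Rspo1 is the secreted ligand of the set. R-spondins bind LGR receptors and hold back the ubiquitin ligases ZNRF3 and RNF43, which otherwise clear Wnt receptors from the cell surface. The gene is at chr4:124986430-125009099 on the plus strand. Rspo1 was at 18.0, 15.2 and 11.5 CPM in R/R and 8.99, 11.1 and 11.2 CPM in WT lungs. The groups did not overlap, but R/R replicate 3 was separated from WT replicate 3 by only 4 counts, 196 against 192, in libraries of similar size. The means were 14.9 ± 3.23 and 10.5 ± 1.27 CPM (SD, n = 3 each), a log2 fold change of 0.51 (95% interval 0.16 to 0.86) with an edgeR adjusted p of 0.158.

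In the rest of the R-spondin pathway, 0 of 9 genes were called by edgeR's quasi-likelihood test, its exact test, DESeq2 or limma-voom. Of the 9, 4 had an unadjusted edgeR p under 0.05, beside 14.2% of all genes tested. The mean was higher in R/R for 3 and lower for 6. Every R/R lung was above every WT lung in Rspo3, Lgr5 and Rnf43, and below in Rspo2 and Axin2. The ligand Rspo2 had 0.427 ± 0.192 CPM in R/R and 0.988 ± 0.311 CPM in WT, and Rspo3 had 1.36 ± 0.442 and 0.886 ± 0.139 CPM. The receptor Lgr5 measured 1.44 ± 0.541 against 0.613 ± 0.203 CPM, whereas Lgr4 and Lgr6 had log2 fold changes of -0.20 and -0.18. The ligase gene Rnf43 stood at 30.1 ± 1.55 against 25.4 ± 2.41 CPM. Axin2, a widely used target of Wnt signalling, stood at 52.0 ± 3.67 in R/R and 63.6 ± 5.94 CPM in WT, a log2 fold change of -0.29 (edgeR adjusted p = 0.109). All these are means ± SD over 3 lungs.

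Krt19 encodes keratin 19, an intermediate filament protein of simple epithelia that mesothelium shares with airway and alveolar cells, so in whole lung it is the least specific member. It maps to chr11:100140810-100148665 on the minus strand. Levels were 147, 143 and 147 CPM in R/R and 104, 106 and 134 CPM in WT lungs. The R/R lungs were almost level, with a coefficient of variation of 1.64%, and WT replicate 3 was the nearest WT lung. Krt19 was the 1 member with its highest value in R/R replicate 3. The log2 fold change was 0.35 (95% interval 0.15 to 0.54), with an adjusted p of 0.0794 by edgeR's quasi-likelihood test and 0.0112 by DESeq2.

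Other simple epithelial keratins ran in the direction of Krt19. Krt7, Krt8 and Krt18 together were at 501 to 513 CPM in R/R and 405 to 447 CPM in WT lungs. In Krt7 and Krt8 every R/R lung was above every WT lung, 2 of 3 genes, beside 9.16% of all genes tested. Their log2 fold changes were 0.17, 0.34 and 0.28, with edgeR adjusted p values of 0.232, 0.0892 and 0.163, all above the threshold. DESeq2 and edgeR's exact test called 1 of the 3, Krt8, beside 541 and 630 of all 17120 genes. All 6 markers of alveolar type 2 cells, the surfactant-producing cells, had a higher mean in R/R, beside 51.2% of all genes tested. Their log2 fold changes ran from 0.05 (Lamp3) to 0.27 (Sftpa1), and edgeR called 0 of them. Summed levels were 21819 to 23043 CPM in R/R against 17150 to 21259 CPM in WT, and most of the sum was Sftpc. Of 7 alveolar type 1 markers, 1, the water channel gene Aqp5, was called, against the 1.75% of all genes called. Its log2 fold change was 0.27 (edgeR adjusted p = 0.0459), and the summed levels of the 7 overlapped. The part of these cells in the Krt19 values was not tested.

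**Figure D2:**
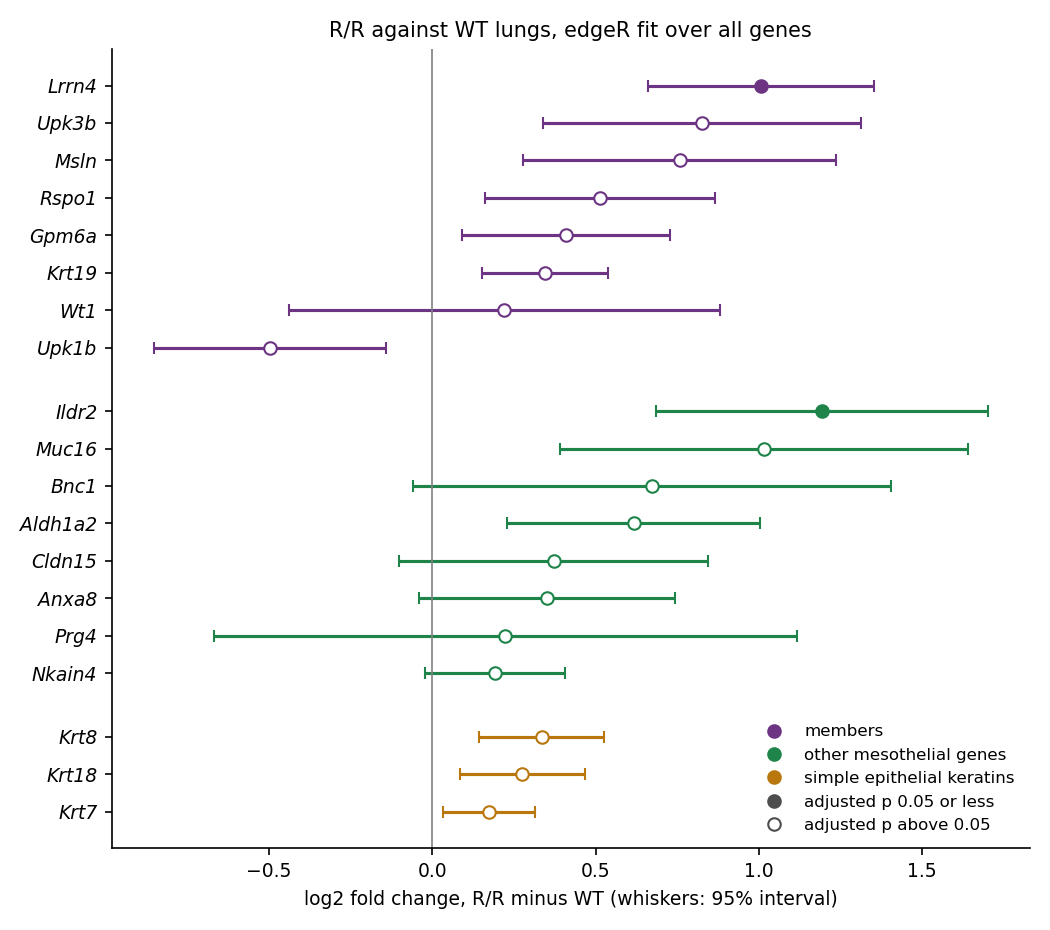
Log2 fold change of R/R against WT lungs (horizontal axis) with its 95% interval for the members (purple), the other mesothelial genes that passed the filter (green) and 3 simple epithelial keratins (orange). Filled points, Lrrn4 and Ildr2, had an edgeR adjusted p of 0.05 or less, and Upk1b is the 1 gene shown with a value below 0.

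A second list of 13 mesothelial genes, none of them members, was read in the same lungs. It was chosen with earlier results of these data known. Of the 13 genes, 8 passed the filter, and all 8 had a higher mean in R/R, beside 51.2% of all genes tested. The median log2 fold change of the 8 was 0.49. Ildr2, which encodes an immunoglobulin-like membrane protein, was the 1 called, against the 1.75% of all genes called. Its levels were 15.5, 10.3 and 9.90 CPM in R/R and 3.46, 5.52 and 6.62 CPM in WT lungs, with every R/R lung above every WT lung. The log2 fold change was 1.19 ± 0.23 (SE), with an edgeR adjusted p of 0.0319. Leaving out any 1 lung except WT replicate 3 took this adjusted p to between 0.0525 and 0.101.

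Muc16, the large surface mucin also known as CA125, was next in size, at 9.55, 12.7 and 6.83 CPM in R/R and 3.04, 4.25 and 7.08 CPM in WT lungs. R/R replicate 3 and WT replicate 3 crossed, as in Upk3b and Msln, and the log2 fold change of 1.02 had an edgeR adjusted p of 0.115. Aldh1a2, an enzyme that makes retinoic acid, stood at 19.0 ± 4.30 and 12.4 ± 2.598 CPM (SD, n = 3 each), a log2 fold change of 0.62 with an edgeR adjusted p of 0.124. DESeq2 and edgeR's exact test called both of these as well as Ildr2. The transcription factor gene Bnc1, the tight junction gene Cldn15, the annexin gene Anxa8, the lubricin gene Prg4 and Nkain4 had log2 fold changes of 0.67, 0.37, 0.35, 0.22 and 0.19, with edgeR adjusted p values of 0.401 to 0.867. Nkain4 was the most abundant of the list, at 28.7 ± 3.78 and 25.1 ± 0.594 CPM.

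Of the genes that did not pass the filter, Itln1, a lectin of omental mesothelium, was at 0 counts in all 6 lungs. Calb2, the classical human marker calretinin, had 2 counts in WT replicates 1 and 2 and 0 in the other lungs. Tm4sf5, Fgf9 and Tbx18 reached at most 14 counts in a lung. The summed list stood at 79.6 to 109 CPM in R/R and 59.2 to 82.7 CPM in WT lungs and overlapped only between R/R replicate 3 and WT replicate 3.

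Per kilobase of exon, members could be set against one another within a group. In WT lungs the order was Krt19 at 61.8 CPM per kb, Upk1b at 29.9, Gpm6a at 14.4, Upk3b at 10.8, Msln at 10.02, Rspo1 at 5.40, Lrrn4 at 2.36 and Wt1 at 0.268. Only the neighbours Upk3b and Msln overlapped in range there. In R/R lungs Krt19 at 78.5 CPM per kb again led, and Rspo1 at 7.70, Lrrn4 at 4.75 and Wt1 at 0.313 again closed the order. Upk1b at 21.2, Gpm6a at 19.1, Upk3b at 19.1 and Msln at 16.9 CPM per kb lay between, and each of these overlapped with its neighbour. The gap of Upk1b to the next member in WT lungs was thus not seen in R/R lungs.

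The lung-to-lung pattern was shared by most members and did not follow genotype alone. After each gene's log2 CPM was centred on its mean over the 6 lungs, the mean over the 8 members was 0.37, 0.42 and -0.14 in R/R replicates 1, 2 and 3 and -0.42, -0.24 and -0.0003 in WT replicates 1, 2 and 3. R/R replicate 3 was therefore below WT replicate 3. Within R/R lungs Upk3b varied most among members, with a coefficient of variation of 33.7%, and Krt19 least. Over all 6 lungs the highest was 2.83 times the lowest in Upk3b, 2.72 times in Msln, 2.66 times in Lrrn4 and 1.42 times in Krt19.

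**Figure D3:**
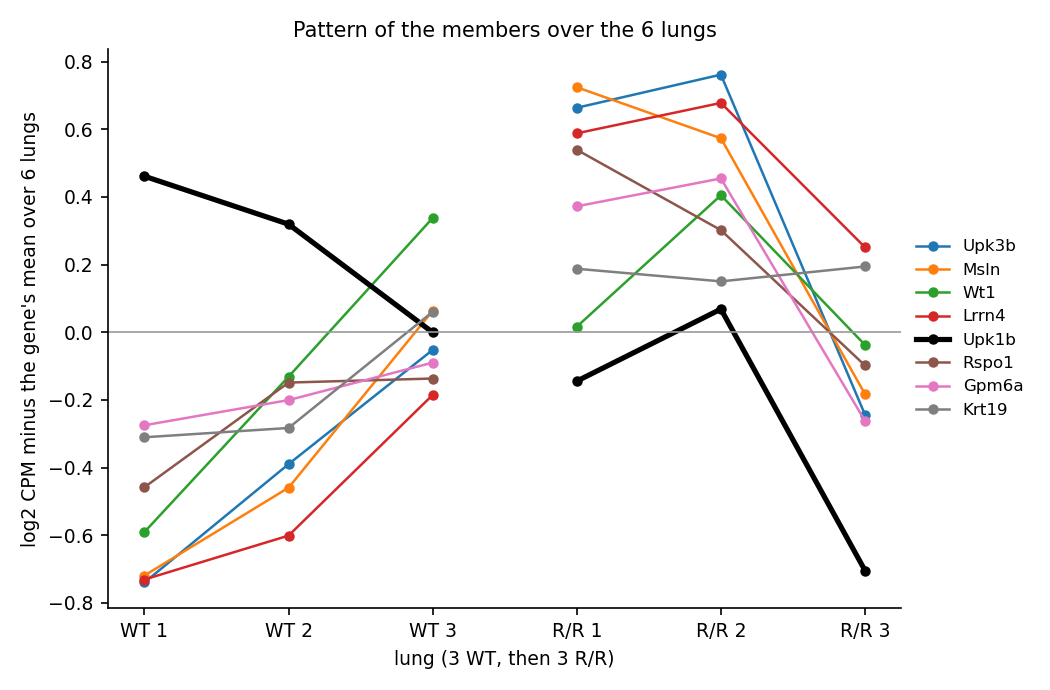
Log2 CPM of each member minus its mean over the 6 lungs (vertical axis) in each WT and R/R lung (horizontal axis). Lines join the points of a gene within a group and imply no order; Upk1b (black) is highest in WT replicates 1 and 2, where the other members are mostly low, and lowest in R/R replicate 3.

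Each member was next taken relative to the mean log2 CPM of the other 7 in the same lung. Among these 8 comparisons the groups did not overlap in Lrrn4, above, and Upk1b, below. Taken relative to the mean of all 8 members, 0.222% of the other 17112 genes tested had every R/R lung above every WT lung and 19.1% had every R/R lung below. Lrrn4 was higher in R/R by 0.66 on the log2 scale, with relative levels of -0.95, -0.91 and -0.76 in R/R and -1.55, -1.62 and -1.41 in WT lungs. Lrrn4 had the largest log2 fold change of the members, and its reference held Upk1b, whose mean was lower in R/R. A positive difference for Lrrn4 was therefore fixed beforehand. Upk1b was lower in R/R by 1.10 on the log2 scale (R/R minus WT, -1.10), with relative levels of 0.57, 0.75 and 0.51 in R/R and 2.17, 1.80 and 1.16 in WT lungs. As Upk1b ran against the other 7, this difference holds their higher levels in R/R as well as its own log2 fold change of -0.50. Both gave an exact two-sided permutation p of 0.1, the smallest possible here, so this design cannot pass 0.05 with that test. For the other 6 members the differences were between -0.21 (Wt1) and 0.40 (Upk3b), with overlapping groups and exact permutation p of 0.2 to 0.7. Against the other mesothelial genes in place of the members, Upk1b was again at -1.10 and Lrrn4 at 0.43. Wt1 was at -0.33 with every R/R lung below every WT lung, although its own log2 fold change was 0.22. This reference was itself higher in R/R, and the share of all genes that separate against it was not counted.

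**Figure D4:**
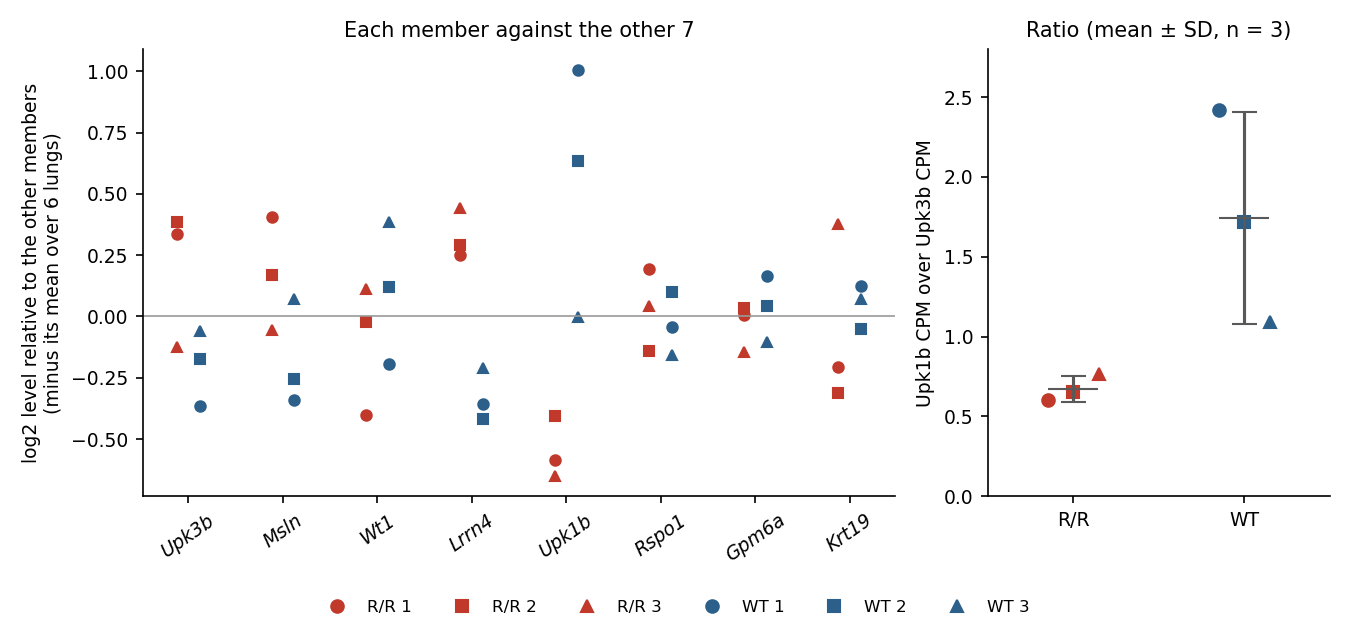
Left, log2 level of each member relative to the mean of the other 7, centred on its mean over the lungs, in R/R (red) and WT (blue) lungs. Right, the ratio of Upk1b to Upk3b CPM with mean and SD (n = 3); the R/R ratios span 0.601 to 0.764 and the WT ratios 1.09 to 2.42.

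Without R/R replicate 3 and WT replicate 3, the lungs with adipocyte markers, 7 of the 8 members were called, beside 3.34% of the 17218 genes then tested. In R/R 6 were higher, and Upk1b was lower, with a log2 fold change of -0.43 (edgeR adjusted p = 0.0333). The log2 fold change of Upk3b became 1.26 and that of Msln 1.23, each with an edgeR adjusted p of 0.000379. Wt1 was the exception, with a log2 fold change of 0.56 (edgeR adjusted p = 0.463). In the members' mean, R/R replicate 3 was the lowest R/R lung (-0.14) and WT replicate 3 the highest WT lung (-0.0003). Leaving out this pair therefore had to widen the difference in that mean, and only replicates 1 and 2 of each group remained. Leaving out a single lung moved the count of members and that of all genes. Without WT replicate 3, 4 members and 3.56% of all genes were called, and without R/R replicate 3, 4 members and 0.671% of all genes. Without R/R replicate 2 and without WT replicate 1 the count of members was 0, beside 0.434% and 0.372% of all genes, with Lrrn4 at a log2 fold change of 0.92 and 0.90. Without R/R replicate 1 and without WT replicate 2 it was 1, beside 1.03% and 0.632%. No member changed direction in any of the 17 alternatives run.

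Other tissues differed between these lungs too. The adipocyte list summed to 17.2 to 28.0 CPM in R/R and 9.29 to 28.1 CPM in WT lungs, but most of it was Cidec, at 8.99 to 16.8 CPM in every lung. Plin1 and Retn, more particular to fat, had 26 and 9 counts in R/R replicate 3 and 36 and 12 in WT replicate 3, against at most 7 in any other lung. Cardiac muscle markers, read from heart or from the muscle sleeves of pulmonary veins, summed to 59.8, 90.7 and 114 CPM in R/R and 158, 242 and 81.7 CPM in WT lungs. They were thus highest in WT replicates 1 and 2, the lungs with the most Upk1b. The other lungs did not keep that order. R/R replicate 3, with the least Upk1b (31.7 CPM), had more cardiac signal than the other R/R lungs and WT replicate 3. Lymphatic endothelial markers summed to 340 to 389 CPM in R/R and 229 to 318 CPM in WT lungs. Fibroblast markers summed to 2005 to 2210 and 2213 to 2518 CPM, and neither sum overlapped. Most of the lymphatic sum was Lyve1, whose groups overlapped, and Prox1 had a log2 fold change of 0.004. In both lists the groups overlapped in every gene tested. Of the 6 fibroblast genes, 5 had a lower mean in R/R and 1, Dcn, a higher one. The thymocyte list summed to 10.8 to 14.2 CPM in R/R and 15.1 to 22.6 CPM in WT lungs, but nearly all of it was Cd8a, Cd4 and Themis, which mature T cells also express. Its defining genes Ptcra and Dntt had at most 3 and 7 counts in a lung, and their groups overlapped. Sums over adventitial fibroblast, smooth muscle, airway secretory, airway ciliated and skeletal muscle markers overlapped, and squamous markers stayed at or below 0.995 CPM. The part of these tissues in the mesothelial values was not tested.

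**Figure D5:**
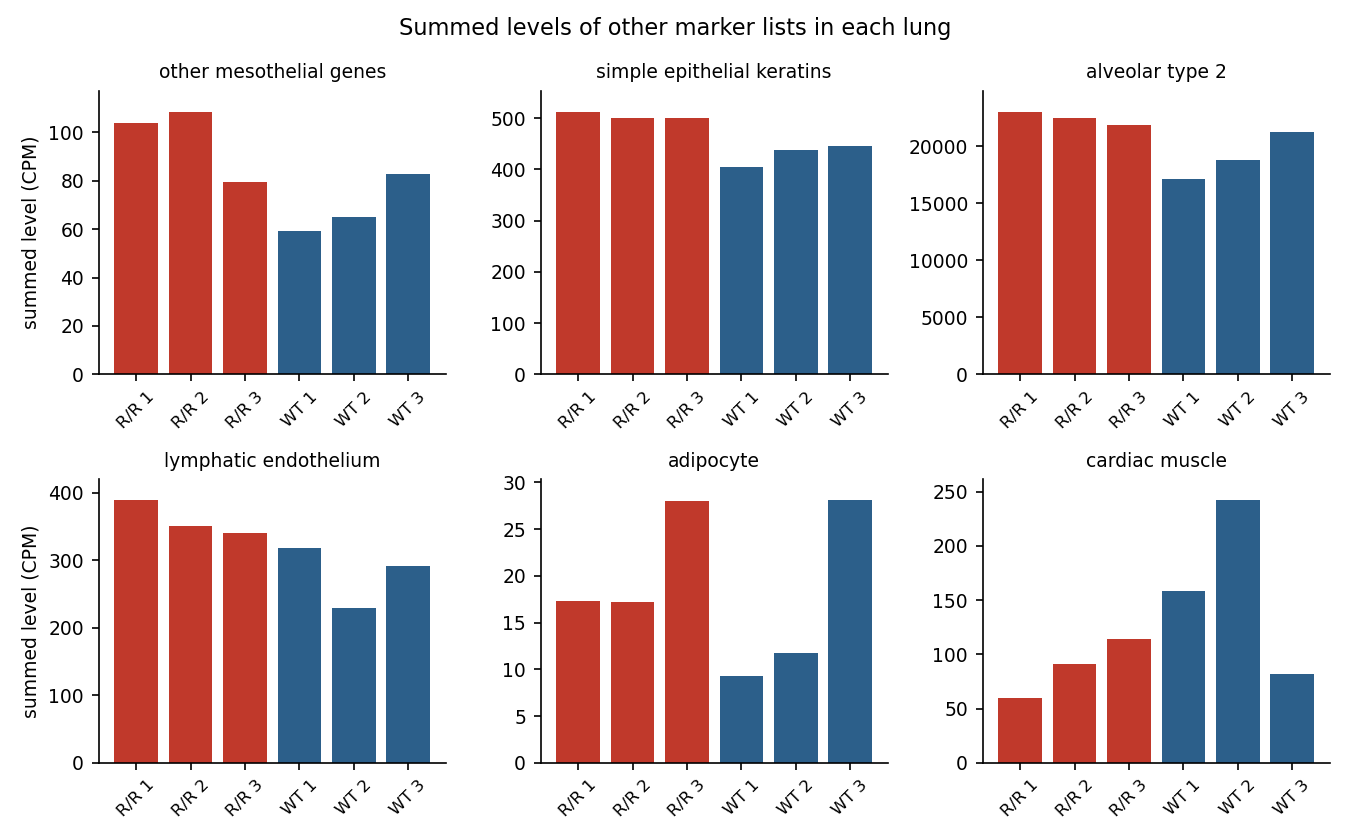
Summed level in CPM (bars from 0) of 6 marker lists in each R/R (red) and WT (blue) lung. The other mesothelial genes are highest in R/R replicates 1 and 2, adipocyte markers, mostly Cidec, in the replicates numbered 3, and cardiac muscle markers in WT replicates 1 and 2 (158 and 242 CPM).

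Among the 15697 tested genes outside the set with a mean of at least 1 CPM, the 10 whose log2 CPM ran most like the members' mean over the 6 lungs were Klhl29, Psmb3, Hint1, Glb1l2, Tmsb4x, Sh3bgrl3, Fau, Btf3, Eif5a and Mcub. Pearson's r was 0.998 for Klhl29 and 0.984 for Mcub, across lungs that share a library each, and is given as a description. These genes followed the pattern over a narrow span. The highest lung was 1.11 times the lowest in Eif5a and 1.51 times in Glb1l2. Their edgeR adjusted p values for R/R against WT were 0.151 to 0.707.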

How the data were processed

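Gene counts of 6 mouse lungs (3 R/R, 3 WT, grouped by their labels) were used as the authors deposited them. Per the study's methods and the file header, stranded paired-end reads were aligned with HISAT2 2.1.0 to mm10 and counted per gene with featureCounts on GENCODE M25. The file header names featureCounts 2.0.1 and sets no strand, whereas the study's methods name another version of featureCounts. No member shares exon bases with another gene. The deposited values are raw counts. The column of WT replicate 3 was entered here as estimated counts for a technical reason only, and was read in like the other columns. What that entry terms deposited estimated counts are raw counts that the authors made like the others, all whole, and none was rounded.

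55141 of 56262 identifiers matched a symbol. Genes passed edgeR's filter (minimum count 10, total 15), library sizes were scaled by TMM, and R/R was tested against WT with the quasi-likelihood test of edgeR 4.0.16 in R 4.3.3, tested first on simulated data. CPM are TMM-scaled, and log2 CPM use a prior count of 0.5. Single values were compared by exact two-sided permutation over 20 regroupings. Alternatives were DESeq2 1.42.0, limma-voom (limma 3.58.1), edgeR's exact test, other scalings and filters, a replicate block, and leaving out lungs. Promoter windows are from RefSeq.

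Named genes are the members, all of the second mesothelial list, called genes of the other lists, and the 10 genes most like the members. Genes of the members' families, of the R-spondin pathway and of the other marker lists that are named beyond that rule were picked after their values were seen. The members and lists were chosen with earlier results of these data known. The 3 lungs a group are biological replicates per the study's methods.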

Additional observations from a re-analysis of the deposited data

How the results depend on the processing

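The number of members called was 1 by edgeR's quasi-likelihood test and also by limma-voom, without TMM, with upper-quartile factors, at 1 CPM in 3 libraries and among protein-coding genes. It was 2 by DESeq2, 4 by edgeR's exact test, 7 when every gene with at least 1 count was tested and 3 at an adjusted p of 0.1. Leaving out 1 lung gave 0 to 4, and leaving out both lungs with adipocyte markers, an alternative chosen after seeing the data, gave 7. That pair was the one that crossed between groups in the members' mean. Over all genes, 300 became 541, 630, 1109 and 548 under those 4 settings, 65 to 621 without 1 lung and 575 without both. The 1109 were among 31428 genes tested, and the other 3 settings had 17120. With every gene of at least 1 count, edgeR's prior degrees of freedom were infinite, against 7.66 in the main fit. The fit of every such gene thus gave no weight to a gene's own spread between lungs. For the other mesothelial genes, 1 became 3 by DESeq2, 3 by the exact test and 3 with every gene of at least 1 count, 0 to 4 without 1 lung and 5 without both. With the replicate block 3 members were called (Lrrn4, Krt19 and Upk1b), beside 446 of all genes. Same-numbered R/R and WT lungs did not deviate together (correlations of -0.014, -0.0028 and -0.015 over 17120 genes). Correlations over all genes do not show whether such lungs shared anything beyond the number, and both lungs numbered 3 had adipocyte markers. The cause of these moves was not tested. Over the 17 alternatives Lrrn4 was called in 15, Krt19 in 7, Upk3b in 6, Msln in 5, Gpm6a in 3, Upk1b in 3, Rspo1 in 2 and Wt1 in 0, each keeping its direction. Another scaling moved the median log2 fold change of all genes to at most 0.0079. Wt1, with 19 to 39 counts a lung, was the least precise member (SE 0.30), and how much of its spread was counting error was not tested.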

Other observations

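When Upk1b was left out of the members' mean, a choice made after the values were seen, the gene whose log2 CPM over the 6 lungs ran most like it was Slurp1, which encodes a small secreted protein of epithelia. Pearson's r was 0.993, given as a description over 6 lungs. Slurp1 spanned a wide range, its highest lung at 5.85 times its lowest. Its means were 7.75 CPM in R/R and 2.61 CPM in WT lungs (n = 3 each), a log2 fold change of 1.57 with an edgeR adjusted p of 0.0447. The pattern it was picked for is itself higher in R/R on average. The next 9 genes in likeness had edgeR adjusted p values of 0.151 to 0.387, and their highest lung was at most 1.65 times the lowest.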
